A study of Mus musculus with 4 samples.

Results

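The lysosome genes described here are 33 genes of the lysosome and of the pathways that feed and control it, out of 23453 genes measured. They were chosen by name after Cd68, one of them, had been seen at a higher level after stimulation, so that Cd68 could be set beside other genes of the same organelle. A row of the deposited table carried the name of 32 of them. The other, Tfeb, was listed under its older symbol Tcfeb and was matched by its Ensembl identifier. Primary hippocampal neurons were prepared from newborn mice (C57BL/6NCrl) and treated on day 12 of culture. Control cultures received the solvent DMSO and kept basal synaptic activity. The stimulated cultures received 50 µM bicuculline for 4 h, which blocks GABA-A receptors and makes the network fire bursts of action potentials (AP bursting). Each group had 2 libraries, from 2 independent cell preparations per the series text.

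Lysosomes are acidified organelles in which hydrolases break down proteins, glycans and lipids delivered by endocytosis and autophagy. Highly glycosylated membrane proteins line them, a proton pump (the V-ATPase) keeps them acidic, and the transcription factor TFEB is known to switch on many of their genes through a palindromic promoter motif, the CLEAR element. In brain tissue Cd68, a heavily glycosylated member of the LAMP family, is used as a marker of microglia and macrophages. In neurons lysosomes take part in the turnover of synaptic and axonal proteins, and loss of single hydrolases causes storage diseases of the nervous system.

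The authors deposited group means. The single libraries were recovered from these means, since a mean of 2 libraries has to come from whole reads. They carry no replicate number and are called here deep and shallow, with 20954659 and 13337809 reads worked out in the controls and 25350935 and 13098608 after AP bursting, over 98.8% and 99.5% of the genes. Libraries of like depth were more alike than libraries of like treatment, with r = 0.906 between the controls and r = 0.962 between the deep libraries across 13648 genes. Libraries of like depth were therefore read as pairs, and the labels do not give this pairing. Whether depth or the cell preparation lies behind the likeness was not tested. With 2 preparations, no test here speaks for more than these cultures. Summed over 10 neuronal marker genes the deposited means gave 195117 normalized counts in controls and 233662 after AP bursting, over 10 astrocyte markers 17825 and 22389, and over 10 markers of the oligodendrocyte lineage 4570.1 and 5596. The cultures thus held RNA of glial marker genes beside the neuronal ones. By library, the astrocyte markers summed to 15851 (deep) and 19799 (shallow) in the controls and to 17240 and 27537 after AP bursting. The oligodendrocyte markers summed to 3716 and 5424, then to 3682.5 and 7509, so that only their shallow pair was higher. In bulk RNA, fewer cells of a type and less RNA per cell cannot be told apart.

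The table of values separated 2 of the 33 genes from the rest. Cd68 and Gla, which encodes the lysosomal enzyme alpha-galactosidase A, stood about equally far above their controls, and the other 31 genes had folds between 0.886 and 1.87 in the authors' deposited table. Of all 33 genes, 1 was past the authors' threshold (adjusted p below 0.05), and it was Gla. Over all genes 0.61% of genes were past it upwards and 0% downwards.

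The 250 bases before the start of Cd68 and of Gla are shown because these are the genes with the large differences. The sequences are from the RefSeq promoter table (GRCm38.p6), both on the minus strand, at chr11:69666171-69666420 for Cd68 and chrX:134601006-134601255 for Gla. Capitals mark matches on either strand to the AP-1 motif TGANTCA (bound by Fos and Jun proteins), to TCACGTGA (the centre of the CLEAR element) and to TGACG (part of the cAMP response element bound by CREB).
Cd68: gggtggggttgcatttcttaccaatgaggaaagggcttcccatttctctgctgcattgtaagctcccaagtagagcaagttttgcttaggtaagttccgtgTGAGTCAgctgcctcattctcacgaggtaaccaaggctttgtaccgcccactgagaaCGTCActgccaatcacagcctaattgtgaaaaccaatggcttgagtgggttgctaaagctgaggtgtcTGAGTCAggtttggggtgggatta
Gla: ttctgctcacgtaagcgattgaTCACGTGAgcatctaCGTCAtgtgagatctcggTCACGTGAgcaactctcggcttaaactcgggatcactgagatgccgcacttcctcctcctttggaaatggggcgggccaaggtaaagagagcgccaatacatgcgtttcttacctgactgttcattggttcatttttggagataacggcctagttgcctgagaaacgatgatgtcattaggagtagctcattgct

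The Cd68 window held 2 AP-1 matches, 1 TGACG match and 0 TCACGTGA matches. The Gla window held 2 TCACGTGA matches, 1 TGACG match and 0 AP-1 matches. A promoter entry was found for 28 of the 33 genes. TCACGTGA was present for Ctsa, Ctsd, Gla and Mcoln1, 4 of these 28 genes, and in 0.785% of 32851 mouse promoter windows of the same length. The shorter E-box core CACGTG, which lies within TCACGTGA, was present for 10 of the 28 genes and in 6.02% of all windows. TGANTCA was present for Cd68, Glb1, Neu1 and Psap, 4 of the 28 genes, and in 6.75% of all windows. TGACG was present for 7 of the 28 genes and in 17.8% of all windows, and the full response element TGACGTCA for 0 of the 28 genes and in 1.55% of all windows. These matches are letters in a window and not shown binding sites. Of the 4 genes with TCACGTGA, Gla was the only one past the authors' threshold, and the other 3 had folds of 1.09 for Ctsa and 1.15 for Ctsd and a log2 fold of 0.16 for Mcoln1 in the authors' deposited table.

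Cd68 (ENSMUSG00000018774) had 52.5 (deep) and 45.9 (shallow) normalized counts in the control libraries, and 253 (deep) and 247 (shallow) after AP bursting. Both stimulated libraries lay far above both controls, and the libraries of each group lay close together. The control mean was 49.2 ± 4.61 (SD, n = 2), and the mean after AP bursting was 250.1 ± 4.77 (SD, n = 2). The authors' deposited table gave a fold of 5.08, a log2 fold of 2.35. In reads, Cd68 had 70 and 42 in the controls and 322 and 163 after AP bursting. The ratio of the deep pair was 4.83 with an exact 95% counting interval of 3.72 to 6.35, and that of the shallow pair 5.37 with an interval of 3.81 to 7.73. The intervals cover counting error only, and reads of a library without molecular identifiers are not independent molecules. These values chose the gene set and are given as a description, with no test.

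**Figure D1:**
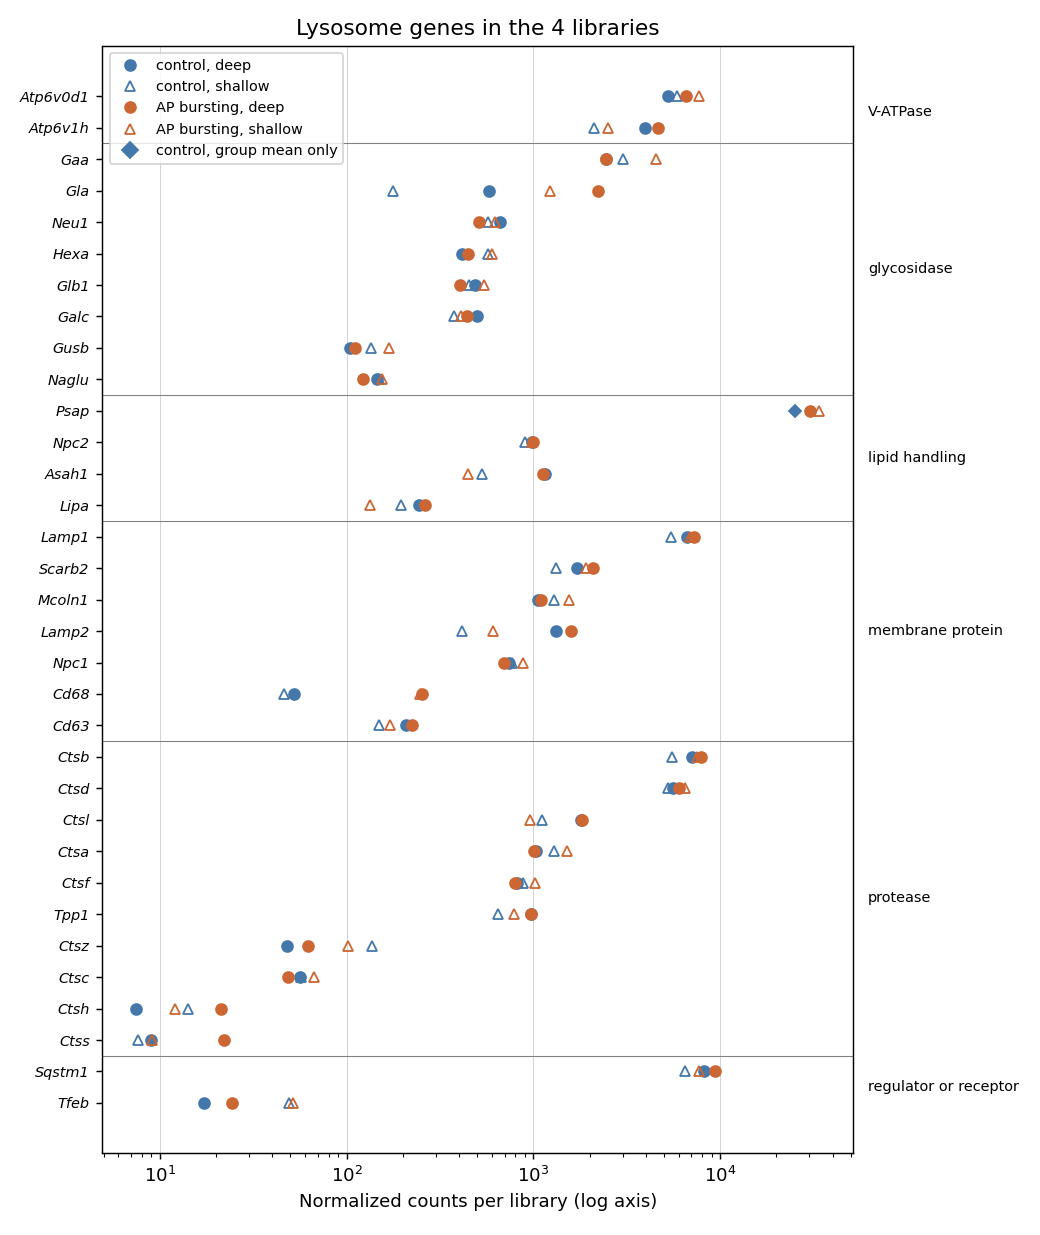
Normalized counts of the 33 lysosome genes in each library (log axis), grouped by role; filled circles are the deep and open triangles the shallow libraries, blue for control and orange for AP bursting, and the blue diamond is the control group mean of Psap, whose control libraries could not be worked out. Cd68 (52.5 and 45.9 against 253 and 247) and Gla (577 and 177 against 2216 and 1232) have orange symbols well to the right of the blue ones, while for most other genes the shape of a symbol, not its colour, sets its place.

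Gla (ENSMUSG00000031266) encodes the enzyme that removes terminal galactose from glycolipids and is deficient in Fabry disease. Its control libraries held 577 (deep) and 177 (shallow) normalized counts, and those after AP bursting 2216 and 1232. The groups did not overlap, but the libraries of a group lay further apart than for Cd68, and the deep library was the higher one in both groups. By the authors' deposited table Gla rose 4.57-fold, with adjusted p = 0.029, the only one of the 32 genes other than Cd68 past that threshold. Within pairs the ratio was 3.84 in the deep pair (exact 95% counting interval 3.54 to 4.16) and 6.95 in the shallow pair (5.87 to 8.28), so the size of the rise differed between pairs by more than counting error. limma with the replicate block removes the difference between pairs and takes its variance from a trend across genes. It gave a log2 fold of 2.37 ± 0.20 (SE, limma adjusted p = 2.29e-30). The SE and p rest on that trend alone and do not carry the unlike rises in the pairs of Gla. limma without the block did not call it (adjusted p = 1.00; such a fit called 0.00989% of all genes higher and 0% lower), and neither did limma with the block but without the trend, nor any fit without the block that left out 1 library.

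Against the whole table, 107 of 13939 genes with a mean of at least 50 had a fold as high as that of Cd68 or higher, and 127 a fold as high as that of Gla or higher. Cd68 exceeded the median of the other 32 genes by 2.19 on the log2 scale in the authors' deposited table. It exceeded it by 2.15 in the deep pair and by 2.18 in the shallow pair.

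**Figure D2:**
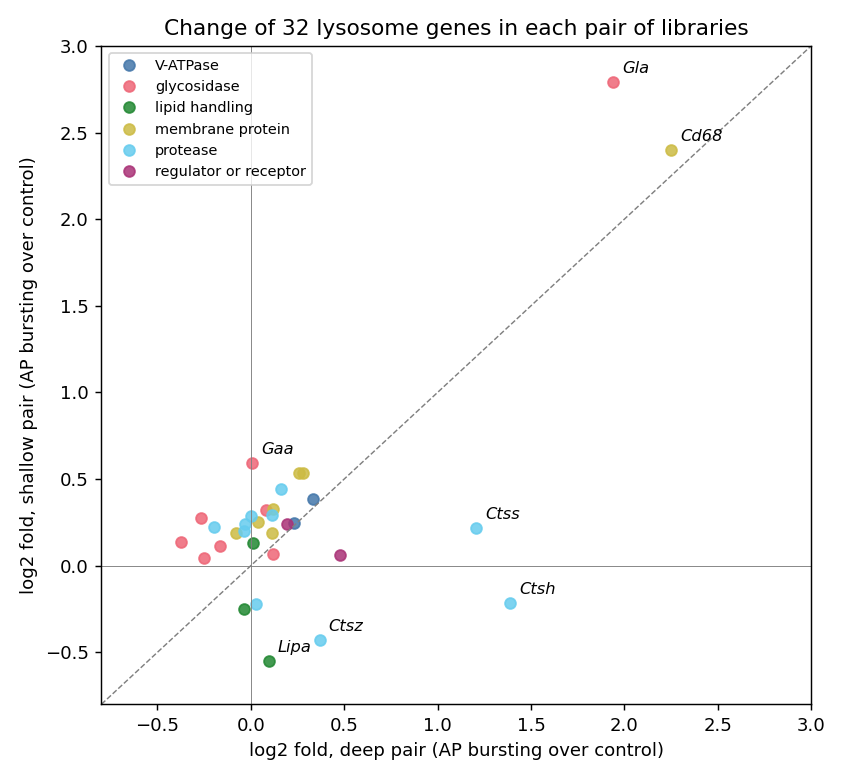
log2 fold of AP bursting over control in the deep pair (horizontal) and the shallow pair (vertical) for the 32 lysosome genes whose libraries could be worked out, on the log2(value + 1) scale; colours give the role and the dashed line marks equal change. Cd68 (2.25 and 2.40) and Gla (1.94 and 2.79) lie apart from all others, and Ctss and Ctsh are displaced in the deep pair alone (1.21 and 1.39 against 0.22 and -0.22).

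Most other membrane proteins stood higher after AP bursting by small amounts that did not pass a test. Lamp1, an abundant glycoprotein of the lysosomal membrane, stood at 6639.6 and 5479 normalized counts in the deep and shallow control and at 7203 and 6872 after AP bursting. Lamp2, its paralogue with a role in chaperone-mediated autophagy, stood at 1323 and 417 in the controls and at 1583 and 604 after AP bursting. For Lamp2 the deep libraries lay above the shallow ones in both groups by more than the treatment moved either. Scarb2, the receptor that carries beta-glucocerebrosidase to lysosomes, stood at 1718 and 1326 in the controls and at 2087 and 1918 after AP bursting, without overlap. Its log2 fold with the block was 0.41 ± 0.18 (SE, limma adjusted p = 0.122). The tetraspanin Cd63, the cholesterol transporter Npc1 and the calcium channel Mcoln1 had log2 folds of 0.15, 0.06 and 0.16 in the authors' deposited table. Without Cd68, 5 of the 6 membrane proteins were higher in both pairs, beside 31.6% of all genes, and in Npc1 the pairs differed in sign. With scaling to total reads, the count higher in both pairs over the whole set without Cd68 went from 18 to 9 of 31. The share of all genes went from 31.6% to 20.5%.

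The proteases with many reads differed little between groups, and those with few reads could not be read firmly. Ctsd, the main aspartic protease of lysosomes, stood at 5564 and 5259.9 normalized counts in the deep and shallow control and at 6013 and 6454 after AP bursting. Ctsb, a cysteine protease, stood at 7091 and 5531 in the controls and at 7918 and 7514 after AP bursting. In both genes the groups did not overlap, yet the log2 folds with the replicate block were only 0.20 ± 0.16 for Ctsd and 0.30 ± 0.15 for Ctsb (SE, limma adjusted p = 0.484 and 0.215). Ctsl, another cysteine protease, stood at 1793 and 1117 in the controls and at 1830.2 and 958 after AP bursting. The serine carboxypeptidase Ctsa, which also protects neuraminidase, the cysteine protease Ctsf, the dipeptidyl peptidase Ctsc and the tripeptidyl peptidase Tpp1 had log2 folds from 0.03 for Ctsc to 0.13 for Ctsa in the authors' deposited table. In all of these but Tpp1 the pairs differed in sign. Tpp1 stood at 971 and 645 in the controls and at 973 and 787 after AP bursting, so that its deep pair was nearly equal.

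Ctss and Ctsh, cysteine proteases that in brain are known mainly from microglia, had the next highest folds of the set in the authors' deposited table, on few reads. Ctss had 12 (deep) and 7 (shallow) reads in the controls and 28 and 6 after AP bursting. Ctsh had 10 and 13 reads in the controls and 27 and 8 after AP bursting. Both were higher in the deep stimulated library, and the shallow pair did not differ beyond counting error. Their ratios in the deep pair were 2.45 for Ctss (exact 95% counting interval 1.21 to 5.29) and 2.84 for Ctsh (1.33 to 6.57), and in the shallow pair 1.19 (0.329 to 4.12) and 0.852 (0.306 to 2.22). Neither passed in limma with the replicate block (adjusted p = 0.413 and 0.503). Ctsz, a carboxypeptidase also found in microglia, stood at 48.0 and 137 normalized counts in the controls and at 62.2 and 101 after AP bursting, with opposite signs in the pairs.

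Apart from Gla, the glycosidases did not move together. Gaa, which degrades glycogen, stood at 2439 and 3015 normalized counts in the deep and shallow control and at 2452 and 4549 after AP bursting. Its deep pair was equal and its shallow pair differed by 0.59 on the log2 scale. Neu1, a sialidase, stood at 665 and 568 in the controls and at 513 and 624 after AP bursting, and Glb1, the beta-galactosidase used as a senescence marker, at 489 and 451 and then 405 and 545. In these the pairs pointed in opposite directions, as in Galc and Naglu. Hexa, a subunit of the hexosaminidase deficient in Tay-Sachs disease, and Gusb, the beta-glucuronidase, were higher in both pairs with folds of 1.06 and 1.17 in the authors' deposited table. Of the 8 glycosidases 4 were higher in both pairs, 4 had pairs that differed in sign, and 0 were lower in both, beside 31.6% of all genes higher and 32% lower in both pairs.

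Among the genes of lipid handling, Psap had the highest level per kilobase of exon of all 33. It encodes the precursor of the saposins, which activate sphingolipid hydrolases. Its mean was 25088 normalized counts in controls, too high for the control libraries to be worked out, and 30249.6 and 33778 in the deep and shallow library after AP bursting, a fold of 1.28 in the authors' deposited table. Asah1, the acid ceramidase, stood at 1147 and 533 in the controls and at 1119 and 448 after AP bursting, the only one of the 32 resolved genes that was lower in both pairs. Lipa, the acid lipase, stood at 244 and 196 in the controls and at 261 and 133 after AP bursting. Npc2, which hands cholesterol to Npc1, stood at 986 and 903 in the controls and at 994 and 988 after AP bursting. Its groups did not overlap, although the mean differed by only 0.07 on the log2 scale in the authors' deposited table.

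Both V-ATPase subunits of the set were higher in both pairs, beside 31.6% of all genes. Within each gene the amount was nearly the same from pair to pair. Atp6v0d1, of the membrane sector, stood at 5237 and 5855 normalized counts in the deep and shallow control and at 6595 and 7659 after AP bursting. Atp6v1h, of the cytosolic sector, stood at 3940.3 and 2121 in the controls and at 4617 and 2519 after AP bursting. Atp6v0d1 had log2 folds of 0.33 (deep pair) and 0.39 (shallow pair), and Atp6v1h of 0.23 and 0.25. With the replicate block these came to 0.36 ± 0.15 and 0.24 ± 0.17 (SE, limma adjusted p = 0.115 and 0.427), and neither passed. With scaling to total reads the log2 folds were smaller, at 0.21 and 0.09 (limma adjusted p = 0.329 and 0.767).

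The regulator Tfeb had one of the lowest levels per kilobase of the set. It had 23 (deep) and 45 (shallow) reads in the controls and 31 and 34 after AP bursting, or 17.2 and 49.2 and then 24.4 and 51.5 normalized counts. The shallow libraries were the higher ones in both groups, and the groups overlapped. Sqstm1, the autophagy receptor p62, stood at 8152 and 6494 in the controls and at 9319.6 and 7682 after AP bursting, a fold of 1.16 in the authors' deposited table.

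Counted over the set without Cd68, 18 of 31 genes with libraries worked out were higher in both pairs, 1 was lower in both, and 12 had pairs of opposite sign. Over all 20226 genes with a mean of at least 1, 31.6% were higher in both pairs and 32% lower in both. With scaling to the total of the reads worked out, 9 of the 31 genes were higher in both pairs, beside 20.5% of all genes. A level at least 1.2-fold higher in both pairs was seen in 3 of the 31, Gla, Scarb2 and Atp6v0d1, beside 15% of all genes. Both stimulated libraries lay above both controls in 8 of the 31 genes other than Cd68 (Gla, Lamp1, Scarb2, Ctsb, Ctsd, Ctss, Npc2 and Atp6v0d1; 12.6% of all genes) and below both in 0 (11.7% of all genes). In Ctss and Npc2 the shallow stimulated library barely exceeded the deep control (9.08 against 8.99 and 988 against 986 normalized counts). This count was not repeated with scaling to total reads. Of the 31, the limma fit with the block called Gla higher and 0 lower, where it called 6.87% of all genes higher and 6.1% lower. With scaling to total reads it again called Gla, where 4.9% of all genes were called higher and 9.41% lower. The median log2 fold of the 32 genes other than Cd68 was 0.15 in the authors' deposited table, against 0.0064 over 20379 genes. Scaling to total reads moved the median of all genes to -0.16 and that of the 31 genes to -0.0028, since it shifts all genes of a library alike. Because the set was chosen with results known, these counts and medians are descriptions.

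**Figure D3:**
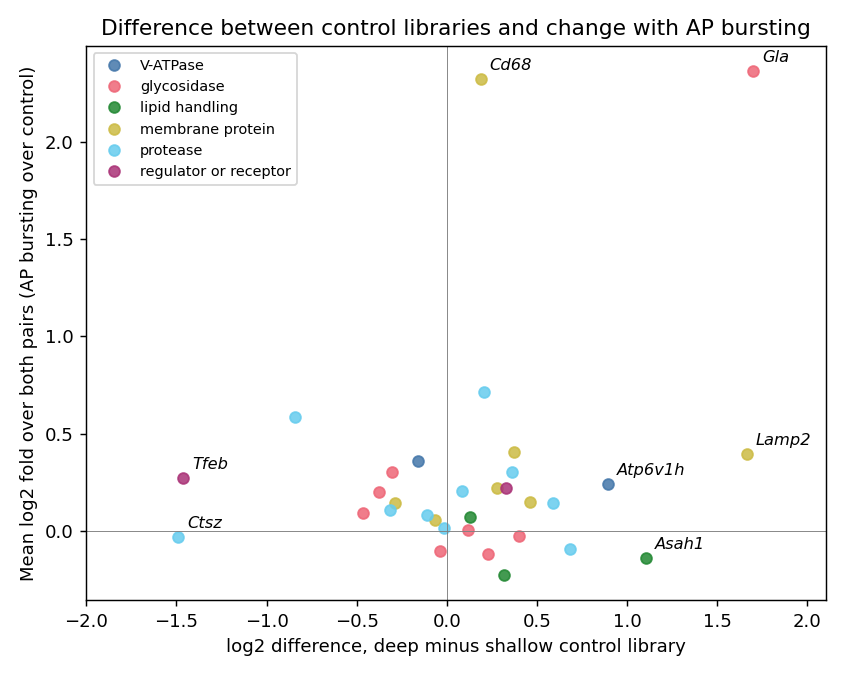
For 32 lysosome genes, the log2 difference between the deep and the shallow control library (horizontal) and the mean log2 fold of AP bursting over control across both pairs (vertical), on the log2(value + 1) scale, with colours for the role. Cd68 (0.19 and 2.33) and Gla (1.70 and 2.37) stand at the top, and most of the rest spread sideways more than upwards, with Lamp2 at 1.66 and Ctsz at -1.49 on the horizontal axis.

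The difference between libraries of 1 group, which played no part in the choice of the set, was larger than the treatment difference for most members, as for most genes. The gap is a single difference between libraries, while the change is a mean over both pairs. The gap therefore carries more noise, and this comparison cannot show a library effect particular to the members. The log2 difference of deep minus shallow in the controls ran from -1.49 for Ctsz to 1.70 for Gla, with a median of 0.16 over 32 genes. In 5 of the 32 genes (Ctsz, Tfeb, Asah1, Lamp2 and Gla) the control libraries differed by more than 2-fold, beside 26.5% of all genes. Without Cd68, the mean change with AP bursting was larger in size than this gap in 6 of the 31 genes, beside 30.9% of all genes. For Cd68 the gap was 0.19 and the change 2.33 on the log2 scale. For Gla the gap was 1.70 and the change 2.37. After AP bursting the difference had the same sign in these 5 genes, at 1.39 for Lamp2, 1.32 for Asah1, 0.85 for Gla, -0.70 for Ctsz and -1.05 for Tfeb, and was smaller in size than in the controls for all of them but Asah1.

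Per kilobase of annotated exon (GENCODE M21, not the annotation the authors counted on), levels of the 33 genes in controls spanned from 2.41 normalized counts for Ctsh to 9143 for Psap. Atp6v0d1, Ctsd, Lamp1, Sqstm1 and Ctsb followed Psap, with 3093, 2302, 2265, 2182 and 1043. At the low end stood Ctsh, Tfeb (5.86), Ctss (6.13) and Ctsc (9.73). Cd68 had 39.1 per kilobase and ranked 26 of 33 in controls, and 199 and rank 15 after AP bursting. Gla had 116 and rank 20 in controls, and 528 and rank 8 after AP bursting. The order among genes of close levels, such as Ctsd, Lamp1 and Sqstm1, was not resolved beyond the spread of their libraries.

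Cd68 was compared with markers of the cells it usually labels. Of 24 microglia and macrophage markers, 0 were past the authors' threshold. Of 21 with a fit, 0 were called by limma with the replicate block in either direction. Over all genes 0.61% were past the authors' threshold upwards and 0% downwards, and the block fit called 6.87% higher and 6.1% lower. In lists this short, counts of 0 lie near those shares and do not show that the markers stayed unchanged. The level summed over the 24 markers was 490.1 (deep) and 430 (shallow) normalized counts in the controls and 583 and 534 after AP bursting. The stimulated libraries lay above the controls, by far less than for Cd68. Lyz2, the lysozyme of macrophages, stood at 104 and 98.4 in the controls and at 163 and 123 after AP bursting. Csf1r, the receptor that microglia depend on for survival, stood at 35.2 and 50.3 in the controls and at 36.2 and 54.5 after AP bursting. Aif1, which encodes Iba1, had 3 and 6 reads in the controls and 5 and 5 after AP bursting. P2ry12 had 0 and 2 reads in the controls and 7 and 3 after AP bursting, and P2ry13, Gpr34 and Siglech had 0 reads in both controls and at most 5 in any stimulated library. The part of such cells in the level of Cd68 was not tested.

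The libraries did not keep strand, so reads of genes that overlap or run into each other cannot be told apart, and the neighbours were therefore read too. On either side of Cd68 lie Mpdu1 and Eif4a1, both on the same strand as Cd68. Eif4a1, an RNA helicase of translation initiation whose 3′ end faces the start of Cd68, stood at 4178 and 3626 normalized counts in the deep and shallow control and at 5908 and 3707 after AP bursting. Mpdu1, a gene of glycan synthesis, stood at 688 and 581 in the controls and at 808 and 736 after AP bursting. In the authors' deposited table Eif4a1 had a fold of 1.23 and Mpdu1 of 1.22, and neither was past the threshold. Further out, Senp3 and Fxr2 had folds of 1.10 and 0.951 there, Sox15 had 1 read in all, and the entry deposited as Tnfsf12 had means of 21.0 and 19.5.

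The neighbours of Gla were looked up after its value was seen. Hnrnph2, an RNA-binding protein gene that starts next to Gla on the opposite strand, stood at 3155 and 1712 normalized counts in the deep and shallow control and at 3396 and 1216 after AP bursting. Rpl36a, a ribosomal protein gene on the other side, stood at 384 and 232 in the controls and at 410.1 and 136 after AP bursting. Both had folds under 1 in the authors' deposited table, 0.948 and 0.887, while Gla rose. As in Gla, their deep libraries were higher than the shallow ones in both groups. Further out, Armcx4, Timm8a1 and Armcx1 had folds of 1.38, 1.16 and 1.09 in the authors' deposited table. Btk had a fold of 3.90 there, on 0 and 2 reads in the controls and 7 and 2 after AP bursting.

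**Figure D4:**
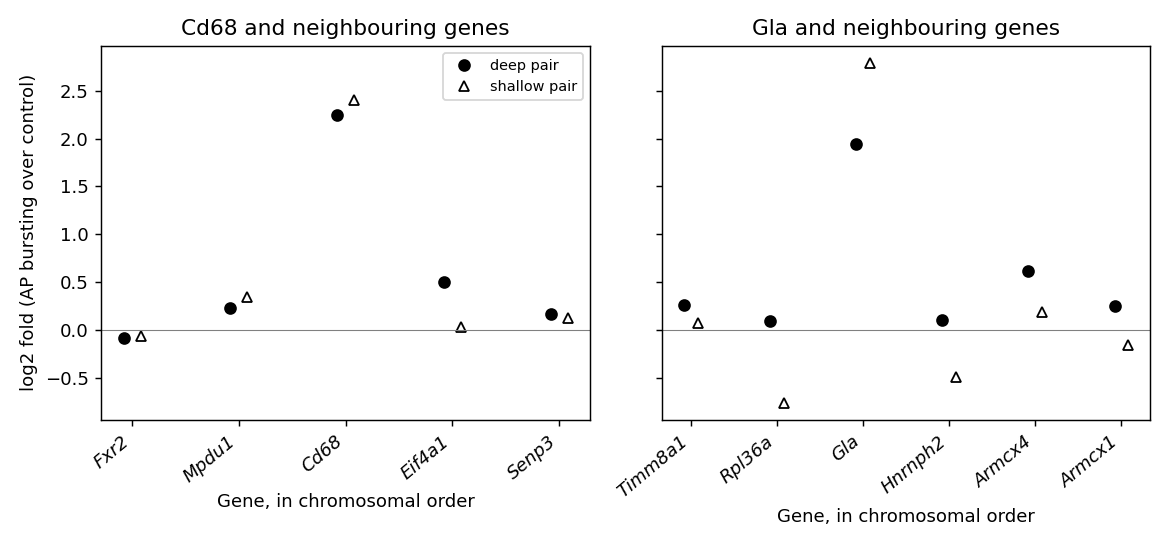
log2 fold of AP bursting over control in the deep pair (filled circles) and the shallow pair (open triangles) for Cd68 and Gla and the neighbouring genes with a control mean of at least 50, in chromosomal order. Cd68 (2.25 and 2.40) and Gla (1.94 and 2.79) stand above neighbours that lie between -0.76 and 0.61.

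The rest of the lysosomal pathway was read from 6 lists chosen with earlier results of these data known. The authors' deposited table called 0 genes of any of these lists, in either direction, beside 0.61% of all genes higher and 0% lower. The limma fit with the block called 11 genes of these lists, and all 11 lost the call without the block, without the trend and in each fit that left out 1 library. Its shares over all genes were 6.87% higher and 6.1% lower, or 4.9% and 9.41% with scaling to total reads, and the counts of most lists lay near or below them. In that fit, 0 of 30 further lysosomal enzymes and activators were called. Of 28 further membrane and transport genes, 1 was called higher and 2 lower, a share no larger than over all genes for higher calls and close to it for lower ones. With scaling to total reads, 0 were called higher and 3 lower. Cln8, an endoplasmic reticulum protein that helps lysosomal enzymes on their way, was higher (log2 fold 0.56 ± 0.20 SE, limma adjusted p = 0.0367), but missed the threshold with scaling to total reads (limma adjusted p = 0.17) and with a pseudocount of 5 (0.0547). Mfsd8, a lysosomal membrane transporter, and Slc29a3, a nucleoside transporter, were lower (log2 folds -0.93 ± 0.23 and -0.88 ± 0.23 SE, limma adjusted p = 0.00121 and 0.00198), and lower in both pairs. Leaving out the shallow library after AP bursting took Mfsd8 to a log2 fold of -0.38, leaving out the deep control to -0.51, and leaving out the deep library after AP bursting to -1.49.

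Of 17 further V-ATPase genes with a fit, 1 was called higher with the replicate block and 0 lower, beside 6.87% and 6.1% of all genes, and with scaling to total reads 1 and 1. The gene called with the block was Atp6v0d2, an isoform of the d subunit known from osteoclasts and macrophages, at 0.749 and 0 normalized counts in the controls and 6.30 and 4.54 after AP bursting, from at most 8 reads in a library. With a pseudocount of 5 its log2 fold went from 2.27 to 0.95 and it missed the threshold (limma adjusted p = 0.0502). The median log2 fold of these genes was 0.16 (deep pair) and 0.088 (shallow pair). Of 21 genes that sort proteins to the lysosome, 0 were called higher and 1 lower, below the share of 6.1% over all genes. It was the tethering subunit Vps39 (log2 fold -0.55 ± 0.18 SE, limma adjusted p = 0.022).

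Among 20 genes of the TFEB family, mTORC1 and nutrient sensing with a fit, the same fit called 4 higher and 0 lower, beside 6.87% and 6.1% of all genes. With scaling to total reads the split was 2 higher and 3 lower, beside 4.9% and 9.41%. Sesn2, a stress-induced inhibitor of mTORC1, stood at 1674 and 513 normalized counts in the deep and shallow control and at 4129 and 2225 after AP bursting (log2 fold 1.71 ± 0.18 SE, limma adjusted p = 1.32e-19). Rheb, the GTPase that activates mTORC1, stood at 2356 and 912 in the controls and at 5519 and 2192 after AP bursting (log2 fold 1.25 ± 0.17 SE, limma adjusted p = 3.67e-11). For Sesn2 the groups did not overlap, and for Rheb they did, as the shallow stimulated library lay below the deep control. They are known to act on mTORC1 in opposite ways. Both passed with either scaling, but with the trend left out neither did (limma adjusted p = 0.178 for both). In the fits without the block that left out 1 library, the log2 fold ranged from 0.86 without the shallow control to 2.56 without the deep control for Sesn2. For Rheb it ranged from 0.56 to 1.93 over the same 2 fits, and was 0.58 without the deep and 1.91 without the shallow library after AP bursting. Tfe3, the relative of Tfeb listed as Tcfe3, stood at 753 and 648 in the controls and at 1038 and 1058 after AP bursting (log2 fold 0.59 ± 0.19 SE, limma adjusted p = 0.0238), and missed the threshold with scaling to total reads (limma adjusted p = 0.133). Sesn3, another sestrin, had a log2 fold of 0.56 ± 0.20 (SE, limma adjusted p = 0.0345). It missed the threshold with scaling to total reads (limma adjusted p = 0.18), with a pseudocount of 5 (0.0727) and with a minimum mean of 10 (0.0514), and its log2 fold was 0.25 without the shallow and 0.87 without the deep library after AP bursting.

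Of 24 autophagy genes, 0 were called higher and 2 lower with the replicate block, beside 6.87% and 6.1% of all genes, so the share lower was near that of all genes. Atg14, deposited under an older symbol and matched by Ensembl identifier, a subunit of the lipid kinase complex that starts autophagosomes, stood at 429 and 349 normalized counts in the deep and shallow control and at 276 and 157 after AP bursting (log2 fold -0.89 ± 0.23 SE, limma adjusted p = 0.00178). Calcoco1, an autophagy receptor, stood at 1054 and 1124 in the controls and at 655 and 683 after AP bursting (log2 fold -0.70 ± 0.19 SE, limma adjusted p = 0.00415). In both the stimulated libraries lay below both controls. Without the shallow library after AP bursting the log2 fold of Atg14 was -0.48. The median log2 fold of the autophagy list was 0.011 in the authors' deposited table.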

How the data were processed

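The submitters' processing notes name TopHat 1.2.0, SAMtools 0.1.19, DESeq 1.12.0 and build mm9; for annotation and counting tool the sources used here give nothing. The deposited table gives, per the file headers, a normalized count signal per gene and group, the fold (ratio) of AP bursting over basal activity and an adjusted p-value by the authors. The number of other per-sample columns was 0. Main calls use the authors' adjusted p (threshold 0.05); edgeR was not run because the table gives no counts per library.

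Library values were recovered by looking, for every mean, for 2 whole read counts that yield it within 1.05 times its printed rounding plus the error of the fitted steps. One solution alone existed for 23171 control and 23333 AP bursting values. The others, at 10014.5 and 11362.2 or more, were left out, which took Psap out of the limma fits. On simulated means, 100% of resolved pairs were right. Size factors were 1.33 and 0.914 (control) and 1.27 and 0.661 (AP bursting).

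Two-sided tests used limma 3.58.1 (R 4.3.3, variance trend) on log2(value + 1) of the 20226 genes whose mean reached 1, and p-values were Benjamini-Hochberg adjusted over all of them. This scale makes changes of low genes look smaller. Scaling to total reads used the reads of these same genes, without the abundant genes whose libraries could not be worked out. The replicate block joined libraries of like depth, whose deviations from the group means correlated (r = 0.878 for deep minus shallow, across 13648 genes). It leaves 1 residual degree of freedom. The prior degrees of freedom of the main block fit were infinite. Its SE and p-values therefore come from the variance trend across genes of like level, not from the spread of a gene's own pairs. In simulated data the libraries of a pair shared the same mean apart from the seeded changes, and all genes had the same dispersion. There limma with the block called 29 of 33 genes raised 2-fold and 12 of 34 raised 1.5-fold. Without the block, 0 were called. The pairing was exact by construction, so these counts cannot give the power of the block fit on the real libraries.

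The members and lists were chosen with earlier results of these data known. All members are named; of each list, up to 4 genes per direction with the largest change among those called. Of the members, 1 was matched by Ensembl identifier. Promoter windows are from RefSeq (GRCm38.p6) and exon lengths from GENCODE M21, a build other than that of the files. Python 3.11.15 was used for the rest.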

Additional observations from a re-analysis of the deposited data

How the results depend on the processing

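Without Cd68, the authors' deposited table called 1 lysosome gene higher (Gla) and 0 lower. limma called 1 and 0 with the replicate block, also with a pseudocount of 0.5 or 5, a minimum mean of 10, no filter or total-read scaling. It called 0 higher without the block, 0 higher with the block but no trend, and 0 to 0 in the leave-one-out fits without the block. The median log2 fold of the other 32 genes (31 in the limma fits) was 0.15 in the authors' table, 0.15 with the replicate block and -0.0028 with total-read scaling, and 0.087 to 0.22 in the leave-one-out fits. The log2 fold of Cd68 was 2.35, against 2.24 with a pseudocount of 5, 2.18 with total-read scaling and 2.23 to 2.42 leave-one-out. Its excess over the median of the others was 2.19, against 2.09 with a pseudocount of 5, 2.15 (deep pair) and 2.18 (shallow pair), and 2.09 to 2.25 leave-one-out. With Cd68 included, 19 of 32 members were higher in both pairs, beside 31.6% of all genes. The count was 4 at a minimum of 1.2-fold, beside 15% of all genes, and 10 with total-read scaling, beside 20.5%. The log2 fold of Gla ranged from 1.52 to 3.21 over 12 alternatives, and its limma adjusted p from 4.13e-31 to 1, past the threshold in 6. Of the 11 other pathway genes called with the replicate block, 11 lost the call without the block, 11 without the trend, 11 in each leave-one-out fit, 3 with a pseudocount of 5, 3 with total-read scaling, 1 at a minimum mean of 10, 0 with a pseudocount of 0.5 and 0 with no filter. Over all genes the authors called 143 higher and 0 lower; limma called 1390 and 1234 with the replicate block, 991 and 1904 with total-read scaling, 2 and 0 without the block (668 at an unadjusted p below 0.05), 0 and 0 with the block but no trend (3268), and 2 to 28 higher leave-one-out. The replicate pairing rests on the data, not on the labels, and its removal ended the limma call of Gla, as did leaving out the trend with the block kept. Leave-one-out fits assume that the lone library varies as the other group does. Where a value moved, the cause was not tested beyond the construction of the setting. Tests for read counts were not run. Ctss, Ctsh and Tfeb, with under 50 reads in every library, are limited by depth.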
